A study of Mus musculus with 36 samples.

Results

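The genes described here are 10 markers of resident macrophages: Adgre1, Csf1r, Cd163, Mrc1, Clec4f, Marco, Cd5l, C1qa, C1qb and C1qc. They were taken by name, not by their values, from the 18760 named genes of the table, and all 10 were found. Wild-type C57BL/6 mice, all bearing a tumor of MC38, a mouse colon carcinoma cell line, gave 6 tissues for bulk RNA sequencing: the tumor itself and 5 organs (liver, lung, kidney, heart and skeletal muscle). One group received a high dosage of antibodies against PD1 and CTLA4, 2 inhibitory receptors of T cells (immune checkpoint blockade, ICB), and the other received control IgG. Each treatment had 3 libraries in each tissue, which makes 36 libraries. The mice were matched for age and sex by the labels, whose values were not used here. Because the controls also carried a tumor, every value below comes from a tumor-bearing animal. The labels do not say which libraries came from separate animals, so p-values measure the spread between these libraries.

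Most organs hold macrophages that settle there early in life and renew in place, and that take on a gene program set by the organ. Kupffer cells are the macrophages inside the sinusoids of the liver, where they clear bacteria, aged red cells and complement-coated particles from the blood. Csf1r is the receptor for the growth factor that macrophages need to survive, and Adgre1 encodes the surface protein F4/80. Cd163 takes up hemoglobin bound to haptoglobin, Mrc1 is the mannose receptor, and Marco is a scavenger receptor for bacteria and particles. Clec4f is a lectin of rodent Kupffer cells, Cd5l is a secreted protein of tissue macrophages that binds lipids and IgM, and C1qa, C1qb and C1qc encode the chains of C1q, which starts the classical complement pathway.

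In GENCODE M21 on GRCm38, C1qb (chr4:136880129-136886187), C1qc (chr4:136889804-136893065) and C1qa (chr4:136895917-136898803) lie side by side on the minus strand within 18675 bases. The other genes lie apart, with Marco at chr1:120474538-120505024, Mrc1 at chr2:14229392-14332057, Cd5l at chr3:87357881-87371073, Clec4f at chr6:83644542-83656187, Cd163 at chr6:124304656-124330527 and Adgre1 at chr17:57358691-57483527. Upstream sequence was matched in RefSeq (GRCm38.p6) for 7 of the 10 genes. The 250 bases before the start of Marco (chr1:120505025-120505274, minus strand), Cd5l (chr3:87357631-87357880, plus strand) and C1qb (chr4:136886201-136886450, minus strand) are shown 5′ to 3′ along the gene's strand, because the first pair differed most between liver libraries and C1qb stands for the C1q cluster. The windows of Mrc1, Clec4f and C1qc run 22, 71 and 151 bases into the GENCODE gene model, so none of those 3 is shown. Capitals mark matches on either strand to GAGGAA (the core of sites for the macrophage factor PU.1), TGCTGA (the half-site of MAF factors) and CATGTG (an E-box of MITF and its relatives), which do not overlap one another here.
Marco: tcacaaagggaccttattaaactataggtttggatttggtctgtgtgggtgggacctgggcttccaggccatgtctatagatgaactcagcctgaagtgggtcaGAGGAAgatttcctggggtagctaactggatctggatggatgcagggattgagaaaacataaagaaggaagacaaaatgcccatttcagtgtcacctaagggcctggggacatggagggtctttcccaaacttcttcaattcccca
Cd5l: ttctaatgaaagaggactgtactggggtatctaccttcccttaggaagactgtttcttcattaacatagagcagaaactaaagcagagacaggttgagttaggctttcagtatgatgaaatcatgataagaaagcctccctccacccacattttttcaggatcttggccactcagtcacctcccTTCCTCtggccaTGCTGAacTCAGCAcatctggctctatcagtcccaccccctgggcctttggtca
C1qb: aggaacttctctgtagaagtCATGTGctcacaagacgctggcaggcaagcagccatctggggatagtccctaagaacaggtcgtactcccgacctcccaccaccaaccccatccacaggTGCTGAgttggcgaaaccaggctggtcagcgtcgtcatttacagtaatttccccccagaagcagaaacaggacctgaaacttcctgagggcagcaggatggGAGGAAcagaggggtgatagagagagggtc
The GAGGAA motif stood 146 bases before the start in Marco, 66 in Cd5l and 30 in C1qb, and it was in 3 of the 4 matched genes whose window lies outside the gene model, or 5 of 7 with Mrc1 and C1qc counted, against 23.1% of all 27025 promoters of this length. TGCTGA was in 2 of the 4 (3 of 7), with matches 54 and 46 bases before the start of Cd5l and 131 before that of C1qb, against 15.8% of all promoters. CATGTG was in 1 of the 4, C1qb at 230 bases (3 of 7), against 12.2%. These are matches of letters, not measured binding sites.

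The libraries held 19005189 to 25512980 reads. Markers of the labelled organ were high in its own libraries (Alb at 34886 FPKM or more in liver, at most 62.1 elsewhere), but in the tumor the epithelial gene Cdh1 stood at only 0.386 to 1.34 FPKM, so the tumor libraries were not epithelial by that marker. FPKM are reads per kilobase of gene and per library size, here scaled by a library factor. In bulk tissue, fewer cells of a type and less RNA per cell cannot be told apart.

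Under control IgG, the Kupffer cell genes set the liver apart from the other tissues. Clec4f stood at 64.9, 148 and 118 FPKM in the 3 IgG livers, and its next highest tissue was lung at 0.181 ± 0.156 FPKM (SD, n = 3), a ratio of 608 between the means. No read of Clec4f was found in any of the 6 kidney libraries, where 3 reads, the upper limit that a count of 0 allows, would be 0.0441 to 0.0553 FPKM. Cd5l stood at 93.0, 204 and 162 FPKM in the IgG livers and at 0.740 ± 0.122 FPKM in lung, a ratio of 207. Marco was the one Kupffer gene with a clear level in a second organ: it stood at 18.4 ± 9.69 FPKM in liver, at 4.10 ± 1.18 FPKM in lung and at no more than 0.105 FPKM on average elsewhere. The neighbouring steps liver over lung (limma adjusted p = 0.018) and lung over tumor (adjusted p = 0.00631) both passed for Marco, and the IgG libraries of these tissues did not overlap.

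All 10 genes were higher in IgG liver than in the mean of the other 5 tissues at an adjusted p under 0.05 in limma, where 30.4% of the 16123 genes tested were called higher and 73.7% were called either way. The log2 differences were 6.98 ± 0.27 for Cd5l (standard error of the fit), 6.63 ± 0.18 for Clec4f, 3.65 ± 0.53 for Marco and 2.60 ± 0.32 for Cd163. The other 6 lay between 1.04 (Mrc1) and 1.76 (C1qc). With each library rescaled to the same sum (TPM scale) the median of all genes in this contrast moved from -0.16 to -0.91, and 5 of the 10 were called: Clec4f (6.90), Cd5l (7.05), Marco (3.596), Cd163 (2.12) and C1qc (0.76). The other 5 stayed between 0.21 and 0.65 on that scale and were not called. In the kidney all 10 genes were lower than the mean of the other tissues at an adjusted p under 0.05, where 37.3% of genes were called lower and 66.7% either way. With all libraries of 1 title number left out, 8 to 10 of the 10 stayed called there, and the losses were Marco (adjusted p up to 0.0971) and Csf1r (up to 0.0654). Set against the tissue with the next lowest IgG mean, the kidney passed only for Mrc1 (limma adjusted p = 2.13e-06). That step did not pass for Adgre1 (adjusted p = 0.135), Cd163 (0.559), C1qa (0.265), C1qb (0.548) or C1qc (0.484). Csf1r was lower in muscle (9.66 FPKM) than in kidney (10.4 FPKM). For Clec4f, Cd5l and Marco the kidney did not stand apart, because the high liver level raises the mean that other tissues are set against. With a title number left out, Clec4f ran from -1.52 to -1.38 in both kidney and muscle. Cd5l ran from -1.70 to -1.60 in kidney and from -1.68 to -1.60 in muscle. Marco ran from -1.40 to -1.27 in kidney and from -1.34 to -1.24 in muscle.

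**Figure D1:**
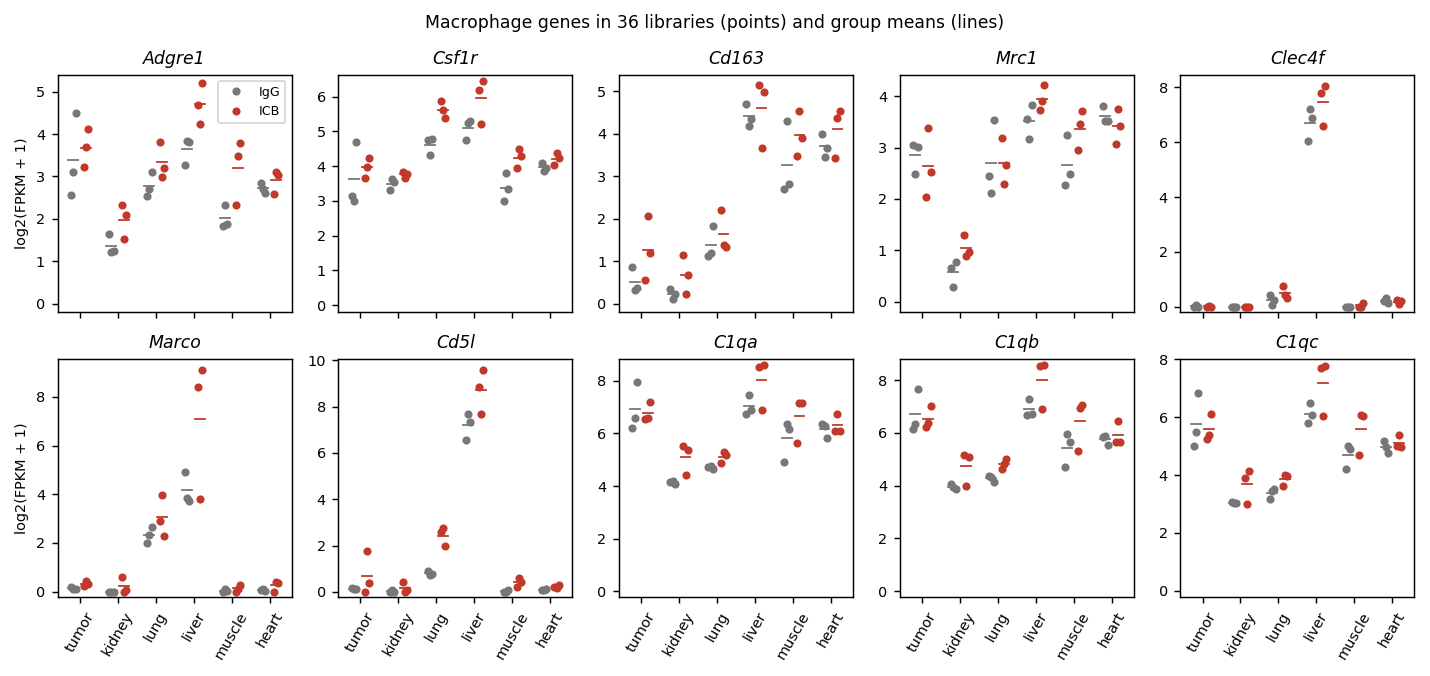
Levels of the 10 macrophage genes in each of 36 libraries, as log2(FPKM + 1), by tissue; grey points are IgG, red points are ICB, and short lines are group means. Clec4f, Marco and Cd5l are high in liver and near 0 in most other tissues, while the C1q genes are found in every tissue.

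The C1q genes did not follow the Kupffer pattern. C1qa stood at 139 ± 96.0 FPKM in IgG tumor and 133 ± 37.5 FPKM in IgG liver, followed by heart (70.9 ± 12.9), muscle (60.4 ± 27.5), lung (25.3 ± 0.805) and kidney (16.6 ± 0.706). Tumor and liver overlapped, as did heart and muscle, and the step from muscle to lung passed (limma adjusted p = 0.0309). C1qb and C1qc had liver first and tumor second, with overlapping libraries. On the TPM scale the tumor stood first for all 3, with C1qa at 659 in IgG tumor and 177 in IgG liver, C1qb at 557 and 159.9, and C1qc at 296 and 93.7, so the place of the tumor in this order depends on the scaling. Lung also moved close to muscle there, with C1qa at 97.9 in IgG lung and 109.6 in IgG muscle. C1qb stood at 70.7 and 81.8 and C1qc at 37.1 and 47.0, so the size of the step from muscle to lung depends on the scaling too. Within a library the 3 chains kept close ratios of FPKM: C1qa over C1qb ran from 0.990 to 1.48 (median 1.21) and C1qc over C1qb from 0.404 to 0.696 (median 0.534) across all 36 libraries.

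The 2 endocytic receptors Cd163 and Mrc1 each had their own order of tissues. Cd163 stood at 20.6 ± 4.06 FPKM in IgG liver, 12.2 ± 2.53 in heart and 10.1 ± 7.48 in muscle. Its levels in lung (1.67 ± 0.763), tumor (0.449 ± 0.313) and kidney (0.168 ± 0.0942) were lower, and the step from muscle to lung passed (limma adjusted p = 0.000208). Mrc1 was highest in heart (11.3 ± 1.51) and liver (10.7 ± 2.64), which overlapped, then tumor (6.35 ± 1.498), lung (6.12 ± 3.90) and muscle (5.62 ± 2.47), which also overlapped. Kidney held the least Mrc1 (0.502 ± 0.257), and that step passed (limma adjusted p = 2.13e-06). The upper part of the Mrc1 order turns over on the TPM scale, where the IgG means were 30.5 in tumor, 25.3 in lung, 20.1 in heart and 14.2 in liver. In the tumor Mrc1 stood above Cd163 in every IgG library, by a ratio of 9.06 to 24.5. The same held in every IgG lung (2.61 to 4.16) and, with both genes under 1 FPKM, in every IgG kidney (2.22 to 4.24). The ratio was 0.431 to 0.677 in IgG liver, 0.451 to 0.767 in IgG muscle and 0.874 to 1.05 in IgG heart.

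The general macrophage genes Csf1r and Adgre1 spread least between tissues. Csf1r ran from 33.5 ± 6.68 FPKM in IgG liver and 23.9 ± 4.15 in lung to 9.66 ± 2.96 in muscle. None of the steps between neighbouring tissues passed for Csf1r (the smallest limma adjusted p = 0.0734, lung over heart). Adgre1 ran from 11.7 ± 2.62 FPKM in liver to 1.59 ± 0.439 in kidney, again with no neighbouring step that passed (smallest adjusted p = 0.126). The IgG tumor libraries were uneven for both: replicate 3 held 25.1 FPKM of Csf1r and 21.6 of Adgre1, against 6.97 to 7.88 and 4.90 to 7.60 in the other two. Liver was not first for either gene on the TPM scale: Csf1r had means of 93.8 in IgG lung, 63.2 in tumor and 44.8 in liver, and Adgre1 of 53.8 in tumor, 23.8 in lung and 15.7 in liver.

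In the liver, ICB libraries 1 and 3 lay above every control for 9 of the 10 genes, by far the most for Marco, and ICB library 2 did not for most of them. Marco stood at 29.6, 13.3 and 12.4 FPKM in the IgG livers and at 337, 12.99 and 549 FPKM in the ICB livers. Cd5l stood at 93.0, 204 and 162 FPKM in IgG and at 460, 201 and 759 FPKM in ICB. C1qa stood at 105, 176 and 118 FPKM in IgG and at 372, 119 and 387 FPKM in ICB. In all of these, ICB libraries 1 and 3 lay above every control while ICB library 2 lay inside the control range, so the groups overlapped. Clec4f, the most liver-restricted of the 10, gave 64.9, 148 and 118 FPKM against 220, 94.9 and 268 FPKM, the same pattern with a smaller gap. Cd163 stood at 25.1, 17.2 and 19.5 FPKM in IgG and at 34.4, 11.8 and 30.9 FPKM in ICB. For Mrc1, with 10.8, 7.93 and 13.2 FPKM in IgG and 12.3, 14.1 and 17.7 FPKM in ICB, it was ICB library 1 that fell inside the control range. Adgre1, with 8.69, 13.3 and 13.1 FPKM in IgG and 24.6, 17.9 and 35.96 FPKM in ICB, was the only one of the 10 with every ICB liver above every IgG liver, which 3.26% of the genes tested in liver also showed.

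**Figure D2:**
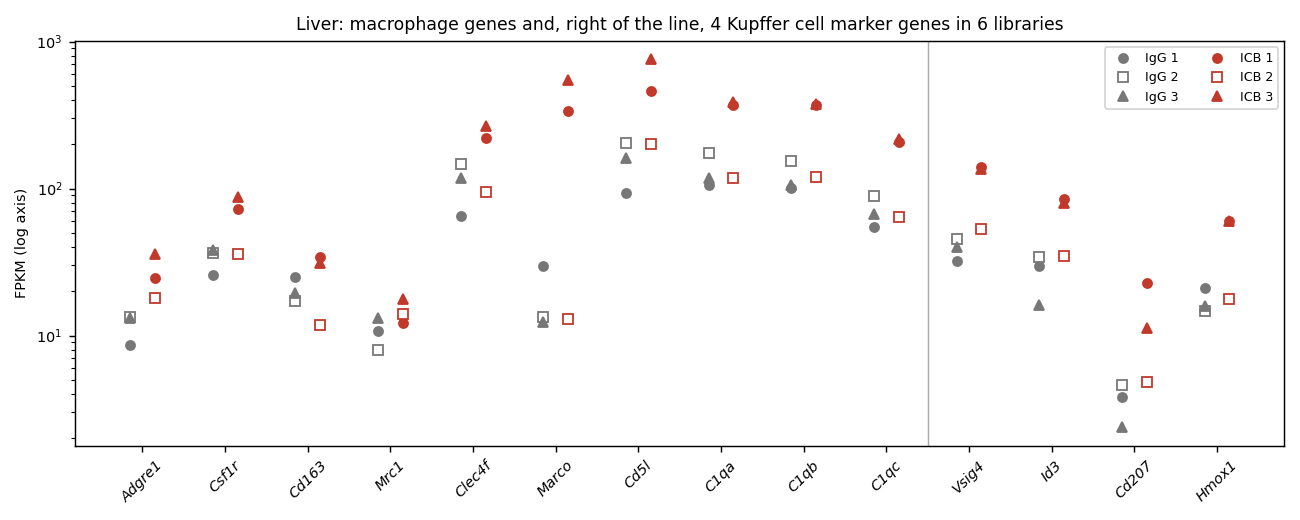
FPKM (log axis) of the 10 macrophage genes and of 4 further Kupffer cell genes in the 6 liver libraries; grey is IgG, red is ICB, and the marker shape gives the replicate. The open red squares, ICB replicate 2, sit among the grey points for most genes, while the other red points sit above them, as for Marco at 337 and 549 FPKM.

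No liver difference passed over all genes: 0 of the 10 had an adjusted p under 0.05 in limma (adjusted p = 0.999 for each), and 0% of the 11257 genes tested were called. By unadjusted p under 0.05, 5 of the 10 were higher (Adgre1, Csf1r, Marco, Cd5l and C1qb), which 2.45% of all genes tested also were, and limma-voom on recovered reads called 0 of the 10 in this and every other tissue. The 10 differences were all positive, with a median of 1.01, against a median of -0.02 and 45.6% of genes higher over all genes tested. They were 2.93 ± 1.23 for Marco, 1.498 ± 0.50 for Cd5l, 1.11 ± 0.45 for C1qb and 1.06 ± 0.28 for Adgre1 on the log2(FPKM + 1) scale. The smallest were 0.44 ± 0.22 for Mrc1 and 0.19 ± 0.38 for Cd163. Without ICB replicate 2, Marco passed (4.58, limma adjusted p = 0.0232), 39 genes passed in all, and the adjusted p of the C1q genes was 0.059 to 0.0743. That library was the lowest ICB liver for 9 of the 10 genes, so leaving it out raises their differences, and this is no support.

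Other genes of Kupffer cells were high in the same 2 ICB livers. Of 13 genes on a Kupffer cell list without members, 12 could be tested in liver, all 12 were higher with ICB (median 0.75) and 0 passed. Vsig4, a complement receptor, stood at 32.3, 45.7 and 40.1 FPKM in IgG and 140, 52.8 and 136 FPKM in ICB. Cd207 stood at 3.81, 4.62 and 2.38 against 22.6, 4.82 and 11.2 FPKM, and Hmox1, which breaks down heme, at 21.2, 14.8 and 15.8 against 60.5, 17.6 and 59.8 FPKM. Again ICB library 2 was the lowest of the ICB livers. The transcription factor Id3 gave 29.8, 34.3 and 16.2 against 85.1, 34.6 and 79.7 FPKM, and Spi1, which encodes PU.1, gave 7.75, 10.8 and 7.67 against 29.2, 8.98 and 28.2 FPKM. Of the growth factor receptors, Csf2ra gave 6.06, 7.69 and 6.42 against 26.4, 8.50 and 25.1 FPKM. Summed over the Kupffer list, the level was 274 to 309 FPKM with IgG and 315 to 593 FPKM with ICB. Lists of other cell types were also higher in the ICB livers. Both tested genes of the B and plasma cell list were higher (2 of 2, median 0.91), and the summed level of that list was 10.4 to 18.7 FPKM with IgG and 22.3 to 56.2 FPKM with ICB, without overlap. Genes of all endothelium were higher for 8 of 8 tested (median 0.35; sums of 43.4 to 63.5 against 60.1 to 87.6 FPKM), and sinusoidal endothelial genes for 9 of 10 (median 0.27). Dendritic cell genes were higher for 2 of 2 tested (median 0.52), monocyte genes for 5 of 8 (median 0.36) and neutrophil genes for 3 of 5 (median 0.01). Their part in the result was not tested.

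Relative to Clec4f, the other Kupffer genes were not equally high. The ratio of Cd5l to Clec4f was 1.38 to 1.43 in the 3 IgG livers and 2.09 to 2.84 in the 3 ICB livers, so these groups did not overlap, ICB library 2 included. The ratio of Marco to Clec4f was 0.0899 to 0.456 in IgG and 0.137 to 2.05 in ICB, with ICB library 2 at the low end. Csf1r to Clec4f overlapped, at 0.247 to 0.398 in IgG and 0.326 to 0.381 in ICB. These ratios were looked at after the values were seen, and no test was made of them.

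In the lung, Cd5l and Csf1r differed most. Cd5l stood at 0.873, 0.634 and 0.713 FPKM in the IgG lungs and at 4.91, 5.81 and 2.89 FPKM in the ICB lungs. Every ICB library was above every IgG library. Cd5l passed the filter on low values only through its 3 ICB libraries, so it had to differ to be tested. Its difference of 1.63 ± 0.21 is therefore given as a description only, and it did not pass (limma adjusted p = 0.483). Csf1r stood at 25.9, 19.1 and 26.6 FPKM in IgG and at 57.3, 48.2 and 40.6 FPKM in ICB (1.00 ± 0.20, adjusted p = 0.898), also without overlap.

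Of the 10 genes, 9 could be tested in lung, 0 were called where 0% of the 12747 genes tested were, 5 were higher at an unadjusted p under 0.05 (2.55% of all genes tested), and 5 of all 10 had every ICB library above every IgG library (Csf1r, Cd5l, C1qa, C1qb and C1qc), against 4.50% of the genes tested. Cd5l is in both of these counts although it had to differ to be tested, so they are no support. The C1q differences were smaller: C1qb stood at 19.8, 18.9 and 16.5 FPKM in IgG and at 23.5, 27.1 and 31.5 FPKM in ICB (0.54 ± 0.16). Marco overlapped, at 2.996, 3.95 and 5.34 against 6.51, 14.8 and 3.89 FPKM. Genes of alveolar macrophages, the macrophages of the air spaces, did not share the direction: 3 of 12 were higher with ICB, with a median of -0.20. Among them Car4, which lung capillaries also express, stood at 55.3, 64.7 and 56.2 FPKM in IgG and 45.4, 47.5 and 50.8 FPKM in ICB, and Itgax at 7.37, 1.70 and 8.79 against 9.504, 8.92 and 11.3 FPKM. Genes of monocytes were higher for 11 of 14 with a median of 0.38, among them Nr4a1 (20.2, 9.65 and 13.4 against 33.6, 49.3 and 27.3 FPKM). T cell genes were higher for 10 of 10 (median 0.43), with sums of 13.4 to 36.1 FPKM with IgG and 27.0 to 42.5 FPKM with ICB. B and plasma cell genes were higher for 10 of 10 (median 0.51; 107 to 285 against 169.9 to 352 FPKM). Genes of lung epithelium were lower for 10 of 10 (median -0.29; 34501 to 55508 against 20627 to 31706 FPKM, without overlap). Erythroid genes were lower for 7 of 7 tested (median -2.37; 1582 to 15665 against 348 to 2119 FPKM). The part of these cell types in the lung values was not tested.

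**Figure D3:**
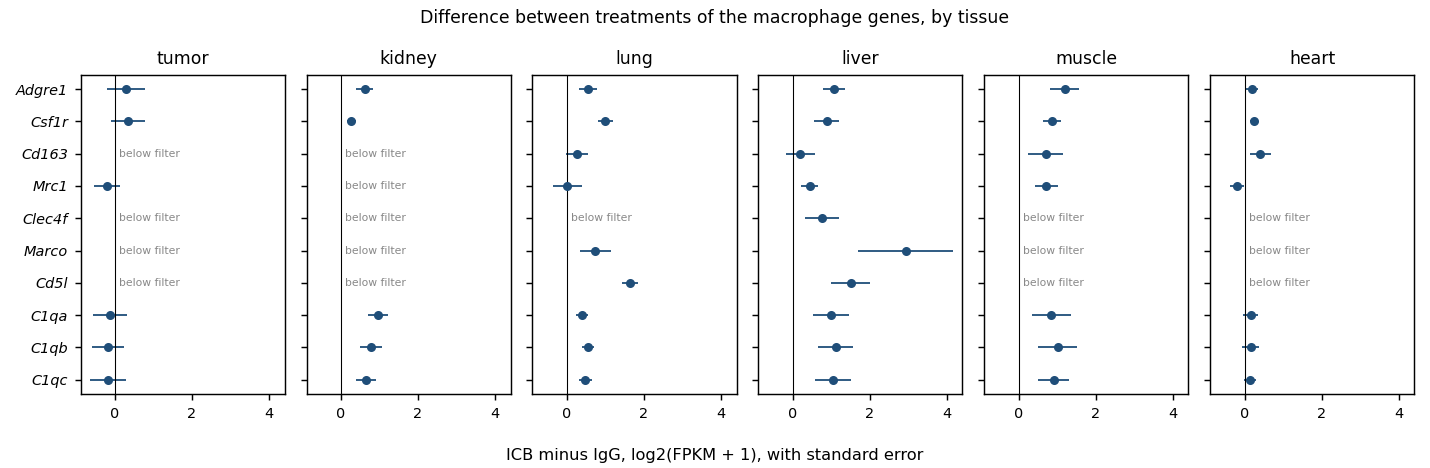
ICB minus IgG difference of each gene in each tissue on the log2(FPKM + 1) scale, with the standard error of the limma fit; genes that did not pass the filter are marked. Marco in liver, at 2.93 ± 1.23, has the largest difference and the widest error, and the tumor values lie on both sides of 0.

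In the kidney, where most of the 10 genes were lowest under IgG, C1qa stood at 16.9, 17.1 and 15.8 FPKM in IgG and at 45.4, 20.2 and 40.4 FPKM in ICB. Its groups did not overlap, and the difference was 0.97 ± 0.26 (limma adjusted p = 0.992). C1qb (15.7, 14.3 and 13.5 against 34.8, 14.8 and 32.6 FPKM) and Adgre1 (2.1003, 1.33 and 1.35 against 4.01, 1.88 and 3.23 FPKM) overlapped through ICB library 2. The 5 genes tested were all higher, with a median of 0.65 against -0.02 for all genes, and 0 passed where 0.0168% of 11901 genes were called. All 5 had an unadjusted p under 0.05, which 1.68% of genes tested reached in that direction. Csf1r and, below the filter, Mrc1 also had every ICB library above every IgG library, so that 3 of 10 did, against 3.45% of genes. Without ICB replicate 2, C1qa (1.32, adjusted p = 0.0173) and C1qb (1.17, adjusted p = 0.0311) passed. That library was the lowest ICB kidney for 5 of 5 genes tested, so leaving it out raises the differences, and these passes are no support. Fat cell genes were also higher in the ICB kidneys: 11 of 11 tested were higher (median 0.77), among them Ucp1 at 8.80, 1.84 and 1.22 against 39.1, 9.11 and 13.2 FPKM. Their summed level overlapped, at 631 to 880 FPKM with IgG against 642 to 1197 FPKM with ICB. Fibroblast genes were higher for 8 of 8 tested (median 0.34; 30.4 to 48.1 against 45.6 to 72.7 FPKM). Erythroid genes were lower for 7 of 7 tested (median -0.93), and their sums did not overlap, at 511 to 707 FPKM with IgG and 223 to 362 FPKM with ICB. The part of these cell types in the kidney result was not tested.

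In skeletal muscle, C1qb stood at 25.0, 60.6 and 49.1 FPKM in IgG and at 38.7, 123 and 132 FPKM in ICB, and Adgre1 at 2.55, 4.02 and 2.65 against 4.01, 10.2 and 12.7 FPKM. Both overlapped through ICB library 1, while ICB libraries 2 and 3 were above every control. Csf1r did not overlap, at 6.97, 12.8 and 9.19 FPKM in IgG and 14.4, 21.4 and 18.7 FPKM in ICB (0.87 ± 0.24, limma adjusted p = 0.876). With Cd5l, below the filter, 2 of 10 had every ICB library above every IgG library, against 6% of genes tested in muscle. The 7 genes tested were all higher, with a median of 0.87 against 0.00 for all genes, and 0 passed where 0% of genes were called. At an unadjusted p under 0.05, 3 were higher, against 3.09% of genes tested. Folr2, a folate receptor of tissue macrophages, had the smallest p of the tissue macrophage list in muscle, at 0.707, 2.005 and 1.77 against 2.70, 8.66 and 7.75 FPKM. Fibroblast genes were higher for 10 of 10 (median 0.53), and fat cell genes were lower for 10 of 11 tested (median -0.96). Erythroid genes were lower for 6 of 6 tested (median -1.17), all 6 at an unadjusted p under 0.05, and their summed level was 284 to 879 FPKM with ICB, below the 981 to 1525 FPKM of the controls. The part of these cells in the muscle result was not tested.

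In the tumor and the heart none of the genes that could be tested passed, and in the tumor the differences depended on 1 library. Of 6 genes tested in the tumor, 2 were higher and 4 lower (median -0.16, against -0.01 for all genes), and 0 passed where 0% of genes were called. None was higher at an unadjusted p under 0.05 (0 of 6, against 3.14% of genes tested in tumor). C1qa stood at 73.3, 94.0 and 249 FPKM in IgG tumors and at 93.7, 95.7 and 144 FPKM in ICB tumors, so the groups overlapped and IgG replicate 3 was the highest of all. Without that library the C1qa difference turned from -0.14 to 0.39, and those of C1qb and C1qc also turned positive. Csf1r then stood at 0.89 and Adgre1 at 0.85. None of the genes passed in tumor with any 1 library left out. Cd163, below the filter in tumor, stood at 0.810, 0.248 and 0.290 against 0.469, 3.17 and 1.27 FPKM. The ratio of Mrc1 to Cd163 was 9.06 to 24.5 in IgG tumors and 2.96 to 6.64 in ICB tumors, and in heart it was 0.874 to 1.05 in IgG and 0.436 to 0.749 in ICB. Every ICB library of both tissues had a lower ratio than every IgG library, which was seen after the values were known and was not tested.

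In the heart 6 of the 7 tested genes were higher and Mrc1 was lower (-0.20 ± 0.18), with a median of 0.15 against 0.00 for all genes, and 0 passed where 0% of genes were called. In limma 0 of the 7 were higher at an unadjusted p under 0.05, against 2.05% of genes tested in heart. Csf1r stood at 16.2, 13.6 and 14.5 FPKM in IgG hearts and at 15.4, 19.95 and 17.7 FPKM in ICB hearts. The groups overlapped by 1 library. Below the filter, Cd5l stood at 0.0555 to 0.0809 FPKM in IgG hearts and 0.123 to 0.211 FPKM in ICB hearts. It was 1 of 10 with every ICB library above every IgG library, against 4.79% of genes tested. Erythroid genes were lower for 6 of 6 tested in heart (median -1.48; 751 to 3897 FPKM with IgG against 415 to 551 FPKM with ICB).

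In the average of the 5 organs without the tumor, Csf1r was called higher with ICB, a call that was lost with the title number as a replicate block (limma adjusted p = 0.120). Its average difference was 0.65 ± 0.14 on the log2(FPKM + 1) scale (limma adjusted p = 0.0265), and it was 1 of 23 genes called out of 8924, that is 0.258%, or 0.213% for genes called higher. Adgre1 had 0.72 ± 0.16 (adjusted p = 0.0518), C1qb 0.72 ± 0.19 (adjusted p = 0.109), C1qc 0.64 ± 0.18 (adjusted p = 0.134) and C1qa 0.67 ± 0.20 (adjusted p = 0.15). These 5 were the members that passed the filter in each organ. The library titles end in a number that recurs across tissues, and all libraries of 1 number were left out at a time. The Csf1r call was lost without 7 of the 10 numbers (those of LV339, LV341, LV343, LV345, K338, K346 and LG347; adjusted p between 0.0517 and 0.300). Without the number of LV344 all 5 genes were called, with Csf1r at 0.78 and C1qb at 1.04. The libraries of that number were mostly the lowest ICB libraries for the 10 genes, so these calls are no support. Of the tissue macrophage list, 13 of 13 tested genes were higher (median 0.38), and Mpeg1, a pore-forming protein, passed (0.68 ± 0.13, limma adjusted p = 0.0176, or 0.0948 with the replicate block). Spi1 had 0.52 ± 0.16 (adjusted p = 0.194) and Irf8, another factor of the lineage, 0.36 ± 0.10 (adjusted p = 0.102). Erythroid genes moved further and the other way: 6 of 6 tested were lower (median -1.26), all 6 at an unadjusted p under 0.05. Among them Hba-a2, a hemoglobin alpha chain gene whose reads can be shared with its near-identical copy Hba-a1, passed (-1.69 ± 0.35, limma adjusted p = 0.0227, or 0.120 with the replicate block). Fibroblast genes were higher for 5 of 5 tested (median 0.36). The part of these cells in the average was not tested.

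Whether the ICB minus IgG difference was the same in all 6 tissues was tested with a limma F test over 16123 genes. None of the 10 genes passed (0 of 10, where 0.0868% of genes were called). The smallest p among them was that of Cd5l (limma adjusted p = 0.505), followed by Marco (adjusted p = 0.794). Without the libraries that share the number of LV344, Marco passed this test (adjusted p = 3.51e-05). That number was picked out after the values were seen, so this pass is no support. The values of liver and lung above are therefore not shown to differ from those of the other tissues with all libraries in.

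The ICB library with the least macrophage transcript carried the same number in its title in 5 of the 6 tissues. There are 10 such numbers, 5 per treatment, and the labels do not say that a number is an animal. The libraries titled T344, M344 and H344 (ICB replicate 1 of tumor, muscle and heart) and K344 and LV344 (ICB replicate 2 of kidney and liver) were the lowest of their 3 ICB libraries for 32 of 35 pairs of a tested gene and a tissue, and the highest for 0. By tissue they were lowest for 6 of 6 genes in tumor, 5 of 5 in kidney, 9 of 10 in liver, 7 of 7 in muscle and 5 of 7 in heart. Over all genes tested, the same libraries were the lowest ICB library for 26.2% to 36.5% of genes. The libraries titled T345, LG345, LV345, M345 and H345 were the highest ICB library for 24 of 39 pairs. By tissue this was 9 of 10 in liver, 6 of 7 in heart, 4 of 7 in muscle, 4 of 9 in lung and 1 of 6 in tumor. Over all genes tested, they were the highest ICB library for 23.4% to 42.5% of genes. No lung library carried the number of LV344, and in lung no ICB library had a mean shift inside the control range. That lung shift includes Cd5l, which had to differ to be tested, so it is given as a description only. The number was picked out after the values were seen, and no test was made of it.

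**Figure D4:**
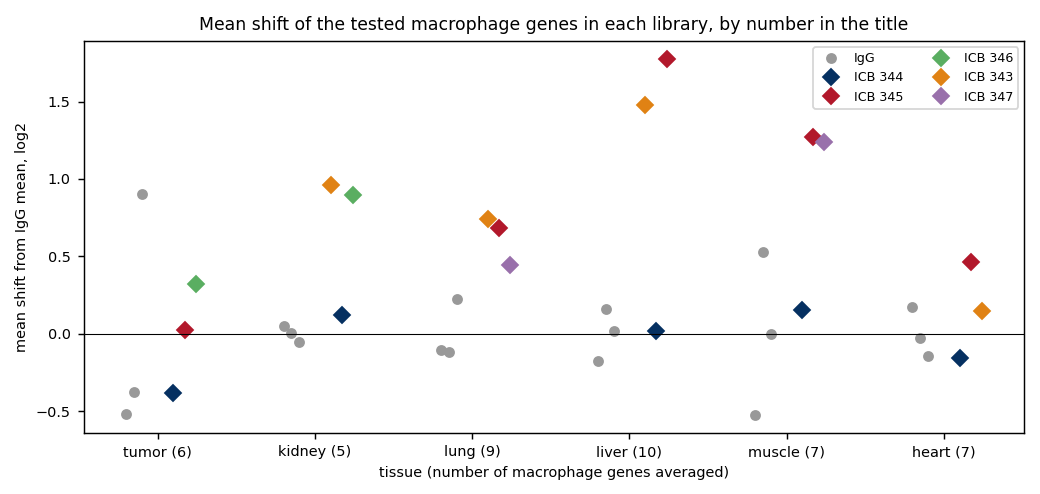
Mean shift of the tested macrophage genes in each library from the IgG mean of its tissue (log2), with the number of genes averaged in brackets; grey circles are IgG libraries and coloured diamonds are ICB libraries by the number in their title. The dark blue diamond (the number of LV344) is the lowest ICB point in each of the 5 tissues that have it, at 0.02 in liver against 1.48 and 1.78 for LV343 and LV345.

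Mean shifts over the tested genes show the same by library. In liver they were 1.48, 0.02 and 1.78 for LV343, LV344 and LV345, in kidney 0.96, 0.12 and 0.89 for K343, K344 and K346, and in muscle 0.15, 1.27 and 1.24 for M344, M345 and M347. IgG libraries lay between -0.18 and 0.16 in liver, between -0.05 and 0.05 in kidney and between -0.52 and 0.53 in muscle. LV344 and M344 thus lay inside the control range and K344 above it. In tumor every ICB library lay inside it, with T344, T345 and T346 at -0.38, 0.03 and 0.32 against -0.52 to 0.90 for IgG. In heart H344, H345 and H343 lay at -0.15, 0.47 and 0.15 against -0.14 to 0.17 for IgG. H343 was thus inside the control range and H344 just below it. In lung the ICB libraries lay at 0.74, 0.68 and 0.44, all above the IgG libraries, which reached 0.22. The lung shift includes Cd5l, which had to differ to be tested, so it is a description and no support.

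The genes most like C1q in pattern were sought among all genes tested, as Pearson's r with the mean log2(FPKM + 1) of C1qa, C1qb and C1qc. Over the 12 group means the 5 most alike of 16123 genes were Ahsa2 (r = 0.92), Gm8430 (0.92), Mapk9 (0.91), Siglec1 (0.91) and Scara5 (0.91), and among the members Adgre1 had 0.83 and Csf1r 0.37. Over the 36 libraries, after the mean of each tissue and treatment group was subtracted, the most alike of 8485 genes were Ctss (0.93), Laptm5 (0.91), Ly86 (0.87), Lyz2 (0.87) and Tyrobp (0.87), all known from macrophages or other leukocytes. Adgre1 (0.79) and Csf1r (0.78) followed C1q in the same measure. These are descriptions over points that share libraries and scaling.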

How the data were processed

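RNA came from flash-frozen tissue, and 36 libraries were deposited as 1 table. The deposited values are FPKM made by the authors. The submitters' processing notes name HISAT2 2.1.0, edgeR and the build mm10. Which counter, gene models and strand setting were used is not given in the sources used here. Reads were recovered from the FPKM for 18781 of 18781 rows (whole within 0.001 reads), and 15 unnamed rows and 3 symbols on 2 rows each were left out. No 2 libraries of a group were duplicates (36 pairs compared).

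Each tissue was fitted with limma 3.58.1 (R 4.3.3, trend, two-sided) on log2(FPKM + 1), over genes with at least 1 FPKM in at least 3 of its 6 libraries, with Benjamini-Hochberg adjustment over all genes tested and a threshold of 0.05. One fit of the 36 libraries with 12 group means gave the average of 5 organs (genes passing in each organ), the test between tissues and the IgG contrasts (genes passing in any tissue). The fits were tested on simulated data. Tried as alternatives were no filter, a pseudocount of 0.1, TPM scaling and median-of-ratios scaling, limma-voom on recovered reads, 1 fit of all libraries, the title number as a block, and each library left out. Replicates are numbered in accession order within a group. From each list the genes with the smallest p were named, up to 4; the members, lists and checks were chosen with earlier results of these data known. Intervals of a count of 0 cover counting error only. Figures were drawn with matplotlib.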

Additional observations from a re-analysis of the deposited data

How the results depend on the processing

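With 3 libraries against 3, an exact two-sided permutation test cannot go below p = 0.1, and single libraries moved many values. Genes called (23 with the main settings) in the average of 5 organs numbered 68 without a filter, 107 on the TPM scale and 0 to 128 with a title number left out, where the lowest followed the numbers of LV343 or LV345 and the highest that of LV344; of the 10 genes 2 were called with a pseudocount of 0.1, 3 without a filter, 2 with median-of-ratios scaling, 5 on the TPM scale and 0 to 5 with a number left out. In the test between tissues (14 genes called) the counts were 5 with a pseudocount of 0.1, 45 without a filter and 7 to 134 with a number left out, with 0 to 1 of the 10 genes. Within tissues, 1 fit of all 36 libraries called 101 genes in muscle, 70 in tumor, 65 in liver, 56 in lung, 12 in kidney and 4 in heart, with 1 of the 10 in lung (Cd5l, limma adjusted p = 0.0198, which had to differ to be tested) and 2 in liver (Marco, 0.0372, and Cd5l, 0.0367). Kidney calls (2) were 1 without a filter and 1 with limma-voom, liver calls (0) were 1 without a filter, and leaving out 1 library gave 0 to 6 in tumor, 1 to 9 in kidney, 0 to 39 in liver and 0 to 2 in heart, with 0 to 2 of the 10 genes in kidney and 0 to 1 in liver; the kidney median ran from 0.54 to 1.00. The lung median was 0.78 on the TPM scale.

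Directions turned with 1 library left out for tumor Adgre1 (-0.12 to 0.85), C1qa (-0.49 to 0.39), C1qb (-0.47 to 0.28), C1qc (-0.57 to 0.35) and Mrc1 (-0.57 to 0.10), lung Mrc1 (-0.28 to 0.43) and Cd163 (-0.022 to 0.49), liver Cd163 (-0.080 to 0.65), and heart C1qa (-0.059 to 0.26), C1qb (-0.11 to 0.29) and C1qc (-0.0024 to 0.24). In the IgG contrasts with a title number left out, 5 to 8 of the 10 genes were called in lung (5 without the numbers of K338 or K342), 3 to 6 in muscle (3 without that of K338) and 8 to 10 in kidney (8 without those of K338 or K342), and the values ran through 0 for muscle Mrc1 (-0.31 to 0.18), C1qa (-0.34 to 0.46), C1qb (-0.42 to 0.27) and C1qc (-0.21 to 0.26), heart Adgre1 (-0.019 to 0.19) and Csf1r (-0.23 to 0.12), and lung Mrc1 (-0.34 to 0.42) and Adgre1 (-0.011 to 0.27). TPM scaling called 5 of the 10 in liver and turned tumor Csf1r (0.62), lung Cd5l (0.26), muscle Mrc1 (-0.33), C1qa (-0.44) and C1qc (-0.41), and heart Adgre1 (-0.38), C1qa (-0.10), C1qb (-0.23) and C1qc (-0.13). A pseudocount of 0.1 turned lung Cd5l (0.53), and median-of-ratios scaling heart Csf1r (0.0016). The cause of these changes was not tested, apart from the fewer or more genes and libraries each alternative holds.

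The title number as a replicate block (consensus correlation 0.106) gave 2 genes called in the average of 5 organs, 0 of the 10 genes there (Csf1r adjusted p = 0.120) and 27 genes in the test between tissues. Over 56 pairs of libraries that share a number, deviations correlated between -0.29 and 0.57 (median 0.15), with 39 pairs over 0.1. Over 214 pairs of the same treatment with different numbers the median was -0.039, with 48 pairs over 0.1, so libraries that share a number were more alike. The labels do not say what the number marks, and the fits reported have no block. Their p-values over all 36 libraries thus treat libraries that share a number as independent, although these were more alike. The calls in the average of 5 organs, in the test between tissues and in the IgG contrasts carry that limit.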
